A study of Homo sapiens with 6 samples.

Results

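A set of 2013 accessible chromatin regions was held by 5 of 6 ATAC-seq peak lists and lacking in the list of 1 parent library. ATAC-seq uses a transposase to cut and tag DNA that is not packed by nucleosomes or other proteins, so that a pile of sequenced fragments marks an open region. Overlapping peaks of the 6 lists on chromosomes 1 to 22 and X were joined into 32037 union regions, and the 2013 were chosen by the presence of a deposited peak: those with a peak in all 3 knockout lists and in 2 parent lists and with none in the remaining parent list. They made up 6.28% of the union (Wilson 95% interval 6.02 to 6.55%) and 15.4% (14.8 to 16.01%) of the 13083 regions that the 5 other lists all held. The other 11070 of these 13083 regions were held by all 6 lists. Intervals here cover counting error alone, and they take neighbouring regions as independent.

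The cells were CCRF-CEM, an established human leukaemia line of T lymphoblasts, in SLFN11-knockout form and in the parent form that expresses SLFN11. Knockout cells and parent cells were each given DMSO, the solvent, or 100 nM camptothecin for 2 h or 4 h, with 1 library for each of the 6 groups and thus no replicate spread and no test between groups. With a single knockout line, the effect of the genotype and that of the line cannot be told apart. Markers of T lymphoblasts could not be checked, because the peaks are on hg19 and gene annotation in these coordinates was not used here, and for the same reason the regions carry no gene names or sequences below.

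The identity of the odd library depends on how the lists are placed. The code inside a list was the code in the title of its recorded sample in 0 of 6 cases. By the recorded sample, the list that lacks the 2013 regions is parent camptothecin 4 h. By the title codes it is parent DMSO, and only under that placement are the regions absent from untreated parent cells alone. Lists are named below by their recorded sample. By the title codes, each list recorded as DMSO is a 2 h library, each recorded as 2 h is a 4 h library and each recorded as 4 h is a DMSO library. The membership of the 2013 regions is the same under both placements, and the knockout lists, which hold all of them, cover DMSO and both times either way.

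SLFN11 is a nuclear protein that is recruited to stalled replication forks and blocks them, which makes cells that express it sensitive to drugs that damage DNA. Camptothecin stabilises topoisomerase I on nicked DNA, and forks that run into such complexes break. Open regions of a genome are mostly promoters, enhancers and insulator sites. Whether a weakly open region enters a peak list depends both on how often it is cut and on how many reads a library has.

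No other list stood alone so often as that recorded as parent 4 h, which was also the shortest. It held 13883 of the union regions, and the 5 others held between 18668 and 23341. The list recorded as parent 4 h lacked 15.4% of the regions that its 5 partners shared, as given above. The same share was 1.01% for the list recorded as knockout DMSO, 3.14% for knockout 2 h, 2.18% for knockout 4 h, 0.557% for parent DMSO and 2.73% for parent 2 h. In numbers, these 5 lists were the only one to lack a region in 113, 359, 247, 62 and 311 cases, in the same order. Of the 3105 regions held by exactly 5 lists, 64.8% were thus those lacking in the list recorded as parent 4 h. When each list was shortened to its 14205 most significant peaks, the length of the list recorded as parent 4 h, which was itself not shortened, 516 regions (5.55%) were lacking in the list recorded as parent 4 h alone, and all 516 overlapped members of the full set. That overlap was nearly fixed in advance, since only the 5 other lists were cut. In lists of this length the other shares were 2.53, 4.50 and 3.65% for knockout DMSO, 2 h and 4 h, and 1.41 and 4.00% for parent DMSO and 2 h. The share of the list recorded as parent 4 h (interval 5.10 to 6.03%) remained the highest of the 6, and its interval lay just above that of knockout 2 h (4.09 to 4.94%).

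**Figure D1:**
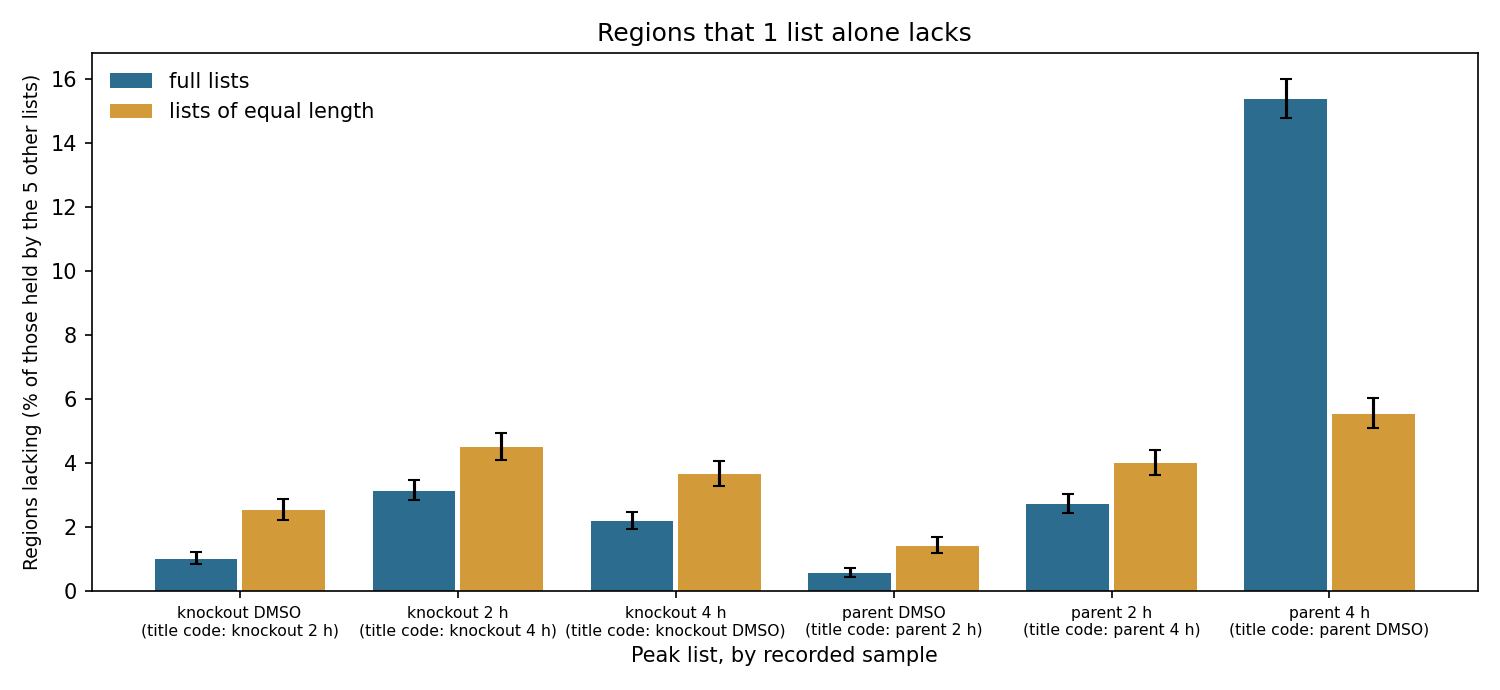
Share of regions that 1 list alone lacks, in percent of the regions held by the 5 other lists, for full lists and for lists of equal length; bars are shares and error bars Wilson 95% intervals. In full lists the list recorded as parent 4 h stands at 15.4% and the others at or below 3.14%, and in equal lists the gap to knockout 2 h (4.50%) is small.

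The members were lower than the regions held by all 6 lists, and lower than or close to the other peaks of the lists that held them. The rule chose them by presence, so their levels are a description and were not tested. The fold enrichment that the authors' peak caller gave at the strongest summit had over the members a median of 5.26 in knockout DMSO, 4.95 in knockout 2 h and 5.03 in knockout 4 h, and of 6.56 and 6.68 in the DMSO and 2 h parent lists. At the regions held by all 6 lists the medians were 7.25, 6.77 and 6.92 in the knockout lists and 8.92 and 9.47 in the parent lists, in the same order. Over all regions of a list that were not members, which include many found in few lists, they were 5.92, 5.92 and 5.98 in the knockout lists and 6.58 and 7.03 in the parent lists, so in the DMSO parent list members were about as high as the rest. Fold enrichment is a ratio over the local background of a library and is compared here between sets of regions within 1 list.

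Pileup, the number of reads stacked at a summit, could be recovered from the deposited fold and p-value. Over the members its median was 18, 15 and 16 in the DMSO, 2 h and 4 h knockout lists, and 25 and 26 in the DMSO and 2 h parent lists. At regions held by all 6 lists it was 30, 24 and 26 in the knockout lists and 49 and 59 in the parent lists, and over all regions that were not members it was 21, 19 and 20 in the knockout lists and 26 and 31 in the parent lists. The lowest pileup that made a peak was 8 in each of the 6 lists. Members therefore reached from this limit upward, with a lower quartile of 14, 13 and 13 reads in the knockout lists and 18 and 17 in the parent lists.

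**Figure D2:**
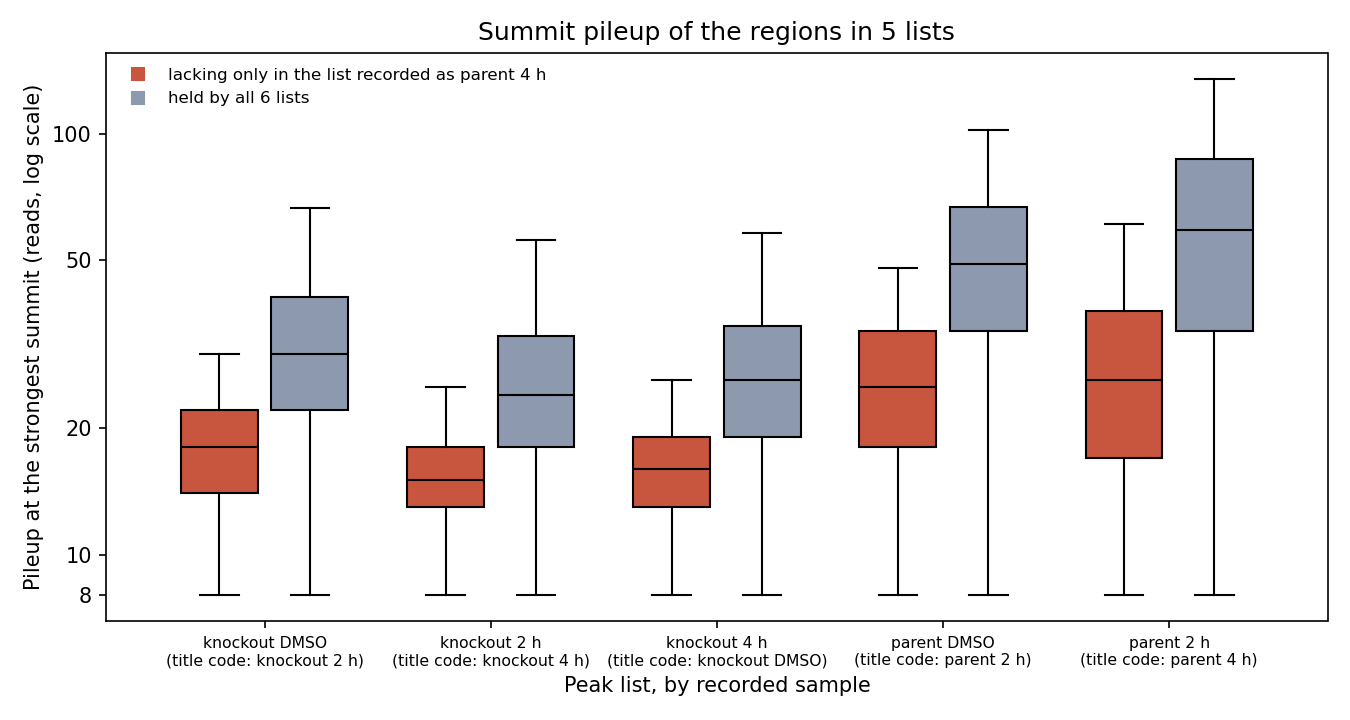
Pileup at the strongest summit, in reads on a log scale, of the 2013 regions lacking only in the list recorded as parent 4 h and of the 11070 regions held by all 6 lists, in each of 5 lists. Boxes span the quartiles with the median as a line, and whiskers run from the lowest value to the 95th percentile; the boxes of the 2013 regions lie lower in all 5 lists.

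Ranked by fold among the 13083 regions that the 5 lists share, the members sat in the lower part in both genotypes. Their median percentile was 20.3, 20.4 and 19.8 in the DMSO, 2 h and 4 h knockout lists, and 22.3 and 24.1 in the DMSO and 2 h parent lists. Between 12.0 and 13.2% of members ranked in the upper part, at the 50th percentile or above, in the knockout lists. In the parent lists the share was 18.7% for DMSO and 18.1% for 2 h. The mean percentile in the knockout lists minus that in the parent lists had a median of -2.05 over the members (quartiles -14.8 and 7.999). Among the 3 knockout lists themselves, the highest and lowest percentile of a member differed by a median of 21.8. That range has no sign, while signed differences cancel in a median, so these values are not alike. In 231 members (11.5%) all 3 knockout lists ranked the region above both parent lists, and in 414 (20.6%) both parent lists ranked it above all 3 knockout lists. At the regions held by all 6 lists the order was turned, with 2157 (19.5%) and 1643 (14.8%). The median difference there was 0.682 (quartiles -11.6 and 12.9).

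Members kept a common order of strength only loosely. Across the 2013 members, Spearman's rho of fold enrichment was 0.66 between the 2 parent lists, between 0.36 and 0.41 for pairs of knockout lists and between 0.27 and 0.44 for pairs of a knockout and a parent list. Across the 11070 regions held by all 6 lists the values were 0.77 for the parent pair, 0.68 for each knockout pair and between 0.54 and 0.63 for mixed pairs. These are descriptions across regions that share a library and its depth, and the narrower range of member folds lowers rho by itself.

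The weakest of the 5 calls was usually in a knockout list. The lowest -log10 q of a member fell in a knockout list for 1784 of 2013 members (88.6%), most often in that recorded as 2 h (771 members) and then 4 h (643) and DMSO (370). It fell in the parent list recorded as DMSO for 82 members and in that recorded as 2 h for 147. At regions held by all 6 lists a knockout list was weakest of the same 5 in 91.4%, so this feature was not more frequent among the members. Only 56 members (2.78%) had a -log10 q of at least 10 in all 5 lists, against 49.9% of the regions held by all 6. A -log10 q below 5 in at least 1 of the 5 lists was found for 1368 members (67.96%) and for 16.8% of the regions held by all 6.

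Members were also narrower and simpler in shape. The union region had a median width of 582 bp for members (quartiles 468 and 725 bp) and 784 bp (631 and 973 bp) for regions held by all 6, against 438 bp over all 32037 union regions. A width of 1000 bp or more was reached by 144 members (7.15%) and by 22.6% of the regions held by all 6. A single summit in all 5 lists was listed for 857 members (42.6%, 40.4 to 44.7%) and for 22.8% (22.1 to 23.6%) of the regions held by all 6. The strongest summits of the 5 lists fell within 100 bp of each other in 758 members (37.7%, 35.6 to 39.8%) and in 46.3% (45.3 to 47.2%) of the regions held by all 6, with a median spread of 127 bp and 107 bp. Of the members, 3 were 170 bp wide or less.

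The share of regions lacking fell steeply with their level in the other lists. For the list recorded as parent 4 h, regions were sorted by the lowest pileup over the 5 other lists. It lacked 45.1% of those at 8 to 10 reads (391 of 867), 39.7% at 11 to 12, 30.6% at 13 to 15, 14.6% at 16 to 20 and 3.04% at 21 to 30. At 31 or more it lacked 12 of 2737 regions (0.438%, 0.251 to 0.765%). The 5 other lists, each sorted by its own 5 partners, lacked between 3.40 and 15.7% of regions at 8 to 10 reads and between 0.0746 and 1.33% at 16 to 20. At 31 or more they lacked between 0.0574 and 0.527%, and the parent list recorded as 2 h was at 0.527% (0.278 to 0.999%), so the list recorded as parent 4 h did not stand apart at strong regions. In 5 classes of equal size by lowest fold enrichment, members made up 40.2% of the lowest class (1.42 to 4.33-fold), 24.7, 9.36 and 2.29% of the next, and 0.420% of the highest (11 of 2618 regions at 7.34-fold or more).

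**Figure D3:**
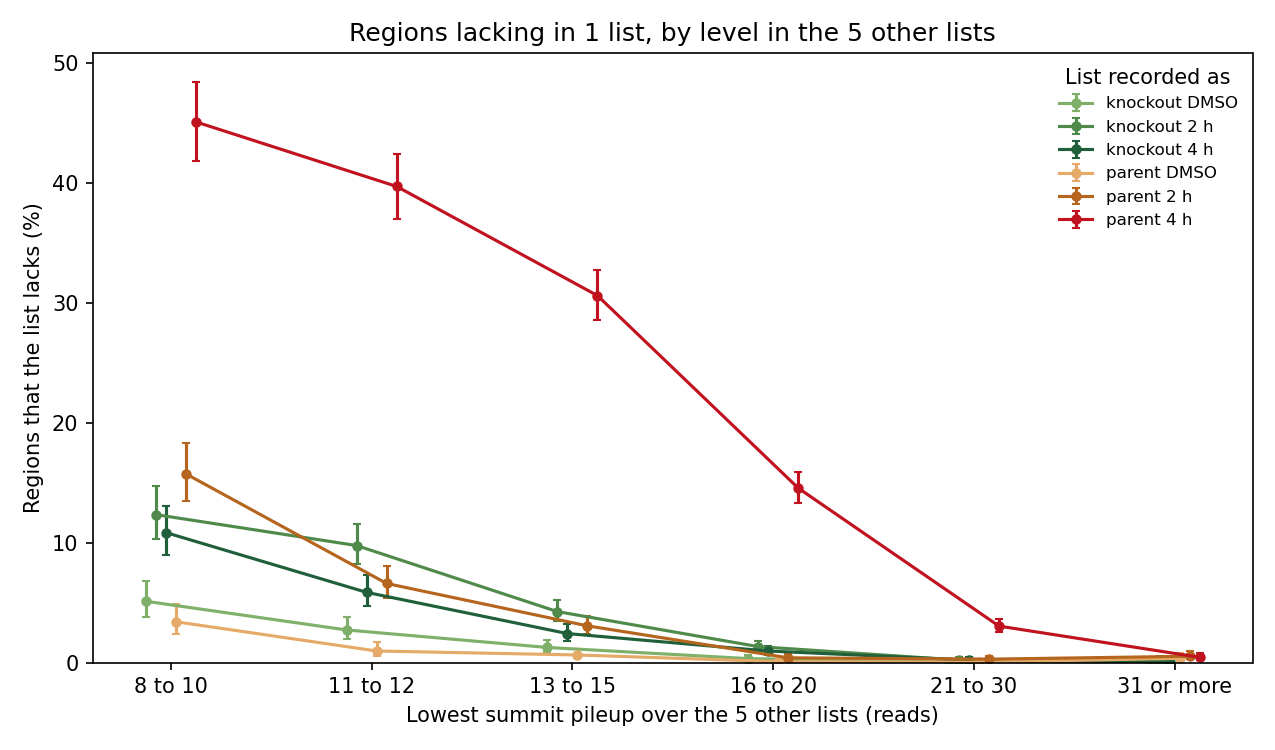
Share of regions that a list lacks, in percent, by the lowest summit pileup over the 5 other lists, for each of the 6 lists; points are shares and bars Wilson 95% intervals. The list recorded as parent 4 h lies above the others from 8 to 30 reads (45.1% to 3.04%) and among them at 31 or more (0.438%).

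The same library also had lower peaks where it did have them. At the 11070 regions held by all 6 lists, the pileup in the list recorded as parent 4 h was a median 0.684 of that in knockout DMSO, 0.818 of knockout 2 h and 0.783 of knockout 4 h. Its median was 0.421 of that in parent DMSO and 0.350 of parent 2 h. It was below the other list at 89.7, 74.9 and 79.7% of these regions for the knockout lists and at 94.6 and 90.7% for the parent lists. Pileup grows with the number of reads. The lowest background of a list, which also grows with read number, was 1.22 in the list recorded as parent 4 h, 1.37, 1.36 and 1.27 in the DMSO, 2 h and 4 h knockout lists, and 1.29 and 1.26 in the DMSO and 2 h parent lists. Read totals were not used here. The part of depth, library quality or treatment in the lack of the 2013 regions was not tested.

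Among the few strong members, the narrow ones led. The highest lowest fold over 5 lists belonged to a 145 bp region on chromosome 4, 70296610 to 70296754. Its peaks were 134 to 145 bp wide in the 5 lists, where the narrowest peak of any member was 129 to 135 bp. It stood at 27.2, 21.6 and 23.3-fold in the DMSO, 2 h and 4 h knockout lists, and 27.2 and 31.6-fold in the DMSO and 2 h parent lists. Its pileup was 88, 63 and 68 in the knockout lists and 94 and 112 in the parent lists, and the nearest peak of the list recorded as parent 4 h lay 329512 bp away. The second, on chromosome 1, 77481579 to 77481965, reached 14.7, 10.7 and 12.9-fold in the knockout lists and 12.7 and 15.9-fold in the parent lists. Its summits fell within 6 bp of each other. The third, on chromosome 8, had 10.7, 10.5 and 10.3-fold in the knockout lists and 12.2 and 16.4-fold in the parent lists.

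The fourth region, on chromosome 6, 61913365 to 61913520, was 156 bp wide and lay in a high local background, of 11.8, 12.1 and 9.80 in the knockout lists and 9.41 and 8.27 in the parent lists, where the median member had a background between 2.19 and 2.82. Its fold was 10.6, 11.8 and 9.91 in the knockout lists and 11.9 and 9.71 in the parent lists. A peak of the list recorded as parent 4 h lay only 318 bp away. The fifth was on chromosome 10, 39094136 to 39094379, at 8.995, 11.03 and 8.66-fold in the knockout lists and 8.61 and 8.90-fold in the parent lists. None of these 5 regions had a peak of at least 300 bp in all 5 lists. No filter for repeats or poorly mapped regions was applied here to the members.

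Broader members with strong signal were led by chromosome X, 48534508 to 48535315, an 808 bp region. It had 8.87, 8.04 and 8.05-fold in the DMSO, 2 h and 4 h knockout lists, and 10.4 and 11.3-fold in the DMSO and 2 h parent lists. Its pileup of 29, 24 and 25 in the knockout lists lay below its pileup of 47 and 61 in the parent lists. The region on chromosome 15, 42264617 to 42265057, did not share this order, at 9.27, 7.60 and 7.92-fold in the knockout lists and 7.52 and 8.76-fold in the parent lists. On chromosome 14, 73360216 to 73361030, the fold was 7.83, 7.40 and 8.04 in the knockout lists and 9.36 and 12.7 in the parent lists.

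The next broad members were both on chromosome 1. The region at 147142326 to 147143027 had 8.98, 7.32 and 8.22-fold in the knockout lists and 11.8 and 11.5-fold in the parent lists. The region at 146009321 to 146009972 had 8.41, 7.13 and 8.33-fold in the knockout lists and 11.9 and 8.41-fold in the parent lists. Next came chromosome 9, 26956121 to 26956691, with 7.60, 7.62 and 7.06-fold in the knockout lists and 11.9 and 11.5-fold in the parent lists. The other 4 of the 10 leading broad regions lay on chromosomes 1 (168323348 to 168324092 and 202895976 to 202896558), 19 (36869720 to 36870413) and 14 (20801043 to 20801712), with a lowest fold between 6.68 and 7.05. In 8 of the 10, both parent lists were above all 3 knockout lists in fold, as they were in 51.8% of members and 56.1% of the regions held by all 6, and folds of different libraries are not levels on 1 scale. In all, 416 members (20.7%) had a peak of at least 300 bp in all 5 lists, against 72.8% of the regions held by all 6.

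Of the top 10 without regard to width, the remaining members were on chromosome 4, 141746753 to 141747477, chromosome 20, 43538505 to 43538960, and chromosome 9, 123883847 to 123884260. The chromosome 9 region had 7.49, 8.05 and 7.94-fold in the DMSO, 2 h and 4 h knockout lists, and 15.7 and 12.6-fold in the DMSO and 2 h parent lists. The chromosome 4 region had 9.72, 8.40 and 7.67-fold in the knockout lists and 8.996 and 8.77-fold in the parent lists.

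The widest members mostly held several summits of low fold. The widest was a 2583 bp region on chromosome 17, 8124103 to 8126685, where up to 10 summits were listed in 1 library. Its peaks covered 711, 891 and 989 bp in the DMSO, 2 h and 4 h knockout lists, and 2008 and 2395 bp in the DMSO and 2 h parent lists, at no more than 4.99-fold. The second, on chromosome 14, 21150633 to 21152688, covered 568, 325 and 852 bp in the knockout lists and 2056 and 1372 bp in the parent lists. The third, on chromosome 19, 29123131 to 29124882, was higher, at 5.02, 6.91 and 5.39-fold in the knockout lists and 8.07 and 5.63-fold in the parent lists. The next widest were chromosome 6, 27833740 to 27835434, and chromosome 12, 125050958 to 125052589. In all 5 of these regions both parent peaks were wider than all 3 knockout peaks, as they were in 48.6% of members and 54.1% of the regions held by all 6. The chromosome 6 region was close to the calling limit in the knockout lists, with -log10 q of 3.94, 2.03 and 2.29, against 12.4 and 12.0 in the parent lists.

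Members were spread over all 23 chromosomes at unequal shares of the 13083 regions. The highest shares were 23.5% on chromosome 17 (151 of 643, interval 20.4 to 26.9%) and 22.3% on chromosome 22 (56 of 251, 17.6 to 27.9%). The lowest were 7.52% on chromosome 4 (47 of 625, 5.70 to 9.86%) and 9.72% on chromosome 13 (28 of 288, 6.81 to 13.7%). Chromosome 19, at 18.2%, was close to chromosomes 14 (18.6%), 15 (18.1%) and X (18.0%), and chromosome 16 was at 13.9%. Chromosomes 17, 19 and 22 were grouped with their values known, and their pooled share is thus a description. Together 342 of their 1636 regions were members (20.9%), against 1671 of 11447 (14.6%) on the other 20 chromosomes. These 3 chromosomes held 16.99% of the members and 11.7% of the regions held by all 6.

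**Figure D4:**
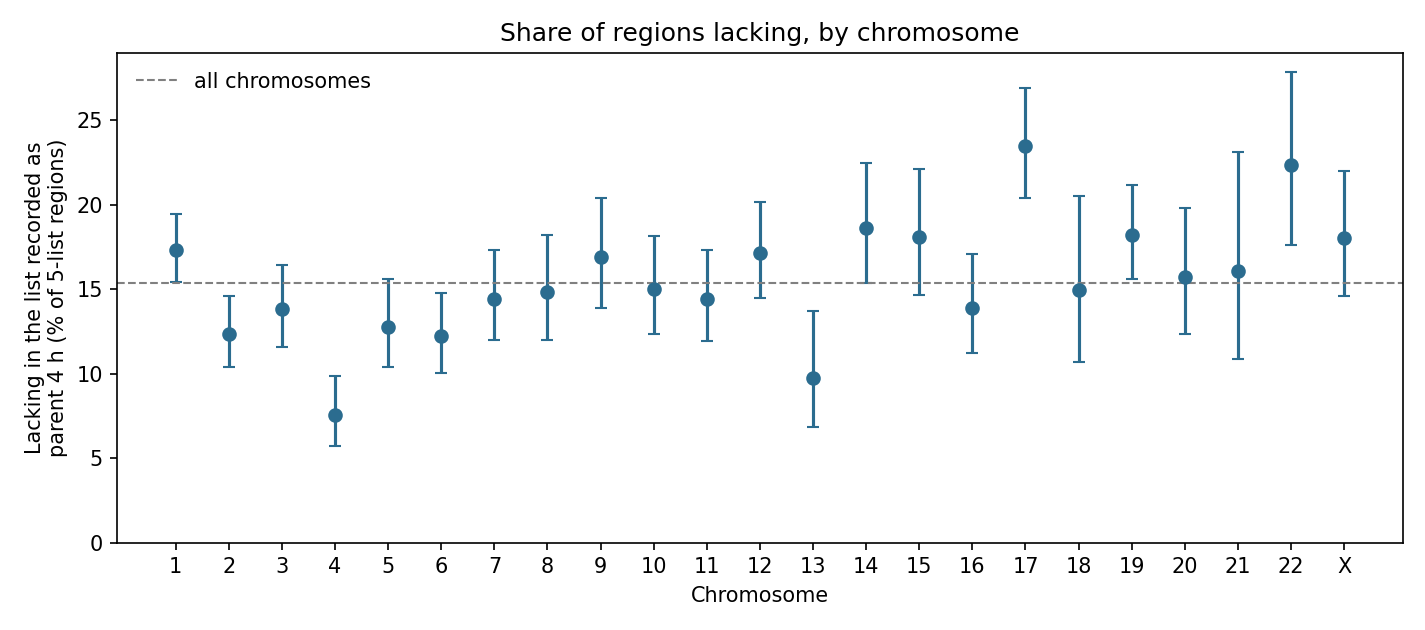
Share of the regions held by the 5 other lists that the list recorded as parent 4 h lacks, in percent, by chromosome; points are shares, bars Wilson 95% intervals and the dashed line the share over all chromosomes, 15.4%. Chromosomes 17 and 22 lie highest and chromosomes 4 and 13 lowest.

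Split by level, the pooled share of these 3 chromosomes was higher in each class up to 30 reads. The group was formed with the shares of these same members known, so the split is a description and no separate support. At a lowest pileup of 8 to 10, members were 66.7% of the regions on chromosomes 17, 19 and 22 (52 of 78) and 43.0% on the other 20. At 11 to 12 the shares were 50.9% and 38.1%, at 13 to 15 they were 37.9% and 29.4%, at 16 to 20 they were 19.5% and 13.7%, and at 21 to 30 they were 4.49% and 2.83%, with overlapping intervals in the last of these. At 31 or more there were 0 members among 248 regions on these 3 chromosomes, which allows a share of up to 1.21%, and 0.482% on the others. Chromosome 19 alone was at 70.0% at 8 to 10 reads, 40.6% at 11 to 12 and 33.3% at 13 to 15. It was at 20.7% at 16 to 20 and at 1.99% at 21 to 30. Its intervals lay above those of the other 20 at 8 to 10 and at 16 to 20, and overlapped them at 11 to 15. At 21 to 30 its share was below that of the other 20. On chromosome 4 the share was 26.0% at 8 to 10 reads and 6.31% at 16 to 20.

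Other lists did not all share this pattern. On chromosomes 17, 19 and 22 against the other 20, the regions lacking in 1 list alone were 0.767% and 1.04% for knockout DMSO, 4.01% and 3.03% for knockout 2 h, and 2.41% and 2.15% for knockout 4 h, all with overlapping intervals. In the parent lists the order was turned, with 0.0772% and 0.620% for parent DMSO and 0.538% and 3.02% for parent 2 h. Members on the 3 chromosomes and on the other 20 had a median pileup of 18 and 17 in knockout DMSO, 15 and 15 in knockout 2 h, 16 and 16 in knockout 4 h, 27 and 24 in parent DMSO and 34 and 24 in parent 2 h. Ranked by fold, members in parent 2 h also stood higher on the 3 chromosomes. So did all 5-list regions in that list, at a median percentile of 56.6 against 48.9. In parent DMSO only members did, at 27.9 against 21.4, with all 5-list regions at 48.5 against 50.2. The same held in knockout DMSO, at 23.2 against 19.6 for members and 47.97 against 50.3 for all 5-list regions. In knockout 2 h and 4 h both sets ranked lower on the 3 chromosomes. At regions held by all 6, the pileup of the list recorded as parent 4 h was a median 0.282 of that of parent 2 h on the 3 chromosomes and 0.364 on the other 20. The same ratio was 0.403 and 0.423 to parent DMSO, 0.651 and 0.688 to knockout DMSO, 0.813 and 0.818 to knockout 2 h and 0.750 and 0.789 to knockout 4 h.

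Members made up 15.4% of the 13083 regions, so most would lack a member as direct neighbour under random placement too. Along each chromosome, 1394 members had no member as a direct neighbour among these regions. Another 466 lay in pairs, and runs of 3, 4 and 5 numbered 40, 7 and 1. No random placement was run, and these numbers are a description. The run of 5 spanned 503 kb of chromosome 1, 228781653 to 229284316, where the list recorded as parent 4 h held none of the 11 union regions. A run of 4 on chromosome 1, 27959068 to 27999032, took up 39.97 kb, and another on chromosome 9, 80048698 to 80423446, took up 375 kb. The lowest fold over the 5 lists was at most 5.50 for the members of these 3 runs. Among the 7 runs of 4 members, the next 3 by position were all on chromosome 17, and those later in position are not listed here. The median distance from a member to the nearest peak of the list recorded as parent 4 h was 30.9 kb. Only 45 members (2.24%) had such a peak within 1000 bp, and 375 (18.6%) within 10 kb. These distances were taken for members alone.

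Few members had a peak of the list recorded as parent 4 h nearby, and many were close to the limit in significance. The definition of overlap still changed which regions were counted, as given below. The members closest to a peak of the list recorded as parent 4 h were on chromosome 3, 63849758 to 63850313 (194 bp away), chromosome 6, 64283015 to 64283715 (206 bp), and chromosome 9, 10643 to 11558 (258 bp). Just outside the rule, the smallest overlaps of a peak of that list with the peaks of the others were 21 bp on chromosome 14, 106733070 to 106733780, 42 bp on chromosome 5, 138891399 to 138892022, and 80 bp on chromosome 12, 123464800 to 123465655. Near the calling limit, 556 regions held by all 6 lists (5.02%) had a -log10 q below 3 in the list recorded as parent 4 h, where a value of 2 is the limit, at a median pileup of 10. Of the members, 480 (23.8%) were below 3 in at least 1 of the 5 lists that held them. This share takes the lowest of 5 lists and the 5.02% a single list, so they are not alike. The lowest -log10 q of the 5 lists had a lower quartile of 3.04 over members and 6.14 over the regions held by all 6.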

How the data were processed

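ATAC-seq peak lists of 6 libraries, 1 a group, were used. Tools in the submitters' processing notes are MACS2 2.1.2, Picard 2.9.2, SAMtools 1.8, BWA 0.7.17, Trimmomatic 0.39 and Trim Galore 0.6.2, with the hg19 build. How reads were shifted, extended and deduplicated is not given in the sources used here, and each can move peak edges and numbers. Per deposited entry there is a fold enrichment, a ratio to local background, and a -log10 p and -log10 q. The deposited score is 10 times the -log10 q, truncated. Lists end at a q of 0.01.

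Entries on other chromosomes (0.445 to 0.728% of a list) were left out. Overlapping entries of a list were merged, keeping the highest fold and q. Coordinates are hg19, counted from 1. Pileup and background were recovered from fold and p under a Poisson model, with p met within 0.01 for at least 99.996% of entries. The method was tested on simulated data. Python 3.11.15, numpy 2.4.6 and scipy 1.17.1 were used. Read totals were not used, and amplified reads are not independent molecules.

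Regions were named by the 10 highest lowest folds over the 5 lists, the 10 highest with peaks of at least 300 bp in all 5, the 5 widest, the 3 longest runs (ties by position), and 3 on either side of the rule. Members, chromosome groups and comparisons were chosen with earlier results of these data known. Shares by annotated starts, GC content and marker genes were planned and not run, since no hg19 genome or annotation was used here. With 1 library a group no test was made.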

Additional observations from a re-analysis of the deposited data

How the results depend on the processing

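The number of 2013 regions and their share of 15.4% depended on the calling limit and on list length, and the definition of overlap changed which regions were counted. With a -log10 q of at least 5 required in the 5 other lists and any peak allowed in the list recorded as parent 4 h, 645 regions (6.55%) remained, all of them members. This setting only removes peaks of the 5 other lists, so that overlap was nearly fixed in advance. With the same limit in all 6 lists the number was 1859 (18.9%), but only 645 of these overlapped a member, since peaks of the list recorded as parent 4 h fell under the stricter limit too. Lists of equal length gave 516 (5.55%). The median lowest fold, 4.28, was 5.29 with the limit of 5 in all lists and 5.21 in equal lists. Leaving out each of the 5 other lists gave between 2109 and 2673 regions and between 15.9 and 18.96%. Requiring peaks to cover 50% of a core around the summits, an alternative chosen after seeing the data, gave 2015 regions (16.2%), of which 1704 (84.6%) were members and the rest had a peak of the list recorded as parent 4 h elsewhere in the region. Without regions of 170 bp or less, chosen likewise, 2010 remained, and 1998 had no peak of the list recorded as parent 4 h within 500 bp. The planned overlap of 50% could change nothing, since each peak lies inside its region, and the title codes change names alone. No paired analysis was possible because each group has 1 library and no comparison was tested. Peaks near 8 reads rest on few reads, so presence or absence there is uncertain.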

Other observations

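Regions lacking in the list recorded as parent 4 h and in 1 further list numbered 661 for knockout 2 h, 568 for knockout 4 h, 267 for knockout DMSO, 294 for parent 2 h and 90 for parent DMSO. In the opposite direction, 393 regions were called in the list recorded as parent 4 h alone, the fewest of the 6 lists. The number was 1498, 1258 and 1163 for knockout DMSO, 2 h and 4 h and 2465 and 1968 for parent DMSO and 2 h.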
